A study of Mus musculus with 6 samples.

Results

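Proteasome genes were measured by RNA sequencing in hearts of male Mdx/Utrn dKO mice, a model of Duchenne muscular dystrophy without dystrophin and its relative utrophin, in 3 libraries after setanaxib and 3 after vehicle. Members were all rows of the count matrix whose symbol is Psma to Psmg followed by a number, without pseudogenes named -ps and without the immunoproteasome genes Psmb8, Psmb9 and Psmb10. The rule found 47 of 50385 rows, and 46 of them passed the filter on low counts. One group was gavaged daily for 12 weeks with setanaxib at 60 mg/kg/day, which inhibits Nox4, an oxidase that makes reactive oxygen species. The vehicle group was given corn oil by the same route and for the same time. Animals were 2 to 3 months old at the start, both groups carry the same mutations, and no wild-type or untreated heart is among the samples used here. The labels do not say whether a library is 1 animal, so p-values measure the spread between libraries, which may be technical. RNA came from bulk heart tissue, in which fewer cells of a type cannot be told apart from less RNA per cell.

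The proteasome is the large protease that degrades proteins tagged with ubiquitin. Its 20S core is a barrel of alpha rings outside and beta rings inside, where the beta subunits encoded by Psmb5, Psmb6 and Psmb7 carry the chymotrypsin-like, caspase-like and trypsin-like sites. The 19S cap binds ubiquitin chains, removes them and unfolds the substrate with a ring of ATPases. In heart muscle this machinery turns over sarcomere proteins, and interferon can replace the catalytic subunits by those of the immunoproteasome. Of the members, 31 encode constitutive subunits of the core and cap, 6 encode activators, an activator copy and an inhibitor, and 7 encode assembly chaperones. Psma8 and Psmb11 encode variants of testis and thymus. Psmc3ip, which encodes a partner of meiotic recombination, matched the rule by its symbol only and is no proteasome gene by its known role.

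Promoters are shown for members on which the results turn, as the stretch of 250 bases before the start listed by RefSeq on GRCm38.p6, a build older than the GRCm39 that the submitters' processing notes name. Psmb5 (chr14:54617996-54618245, minus strand) and Psmb6 (chr11:70525107-70525356, plus strand) are shown as catalytic genes. Psmd2 (chr16:20651402-20651651, plus strand) and Psmc5 (chr11:106255935-106256184, plus strand) are shown as cap genes, and Psme2 (chr14:55591102-55591351, minus strand) as the member whose groups did not overlap. Capitals mark TGACNNNGC, the core of the antioxidant response element that Nfe2l1 and Nfe2l2 bind, in Psmb5 and Psmb6, and CCGGAA or its reverse complement, a core of sites for ETS factors, in Psmd2 and Psmc5. In Psme2 neither motif, nor CCAAT or the interferon-stimulated response element, was found in the stretch shown.
Psmb5: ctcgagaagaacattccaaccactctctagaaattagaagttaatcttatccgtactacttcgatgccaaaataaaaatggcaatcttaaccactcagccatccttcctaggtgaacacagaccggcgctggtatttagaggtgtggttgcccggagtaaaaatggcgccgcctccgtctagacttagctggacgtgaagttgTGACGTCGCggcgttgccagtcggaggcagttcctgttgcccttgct
Psmb6: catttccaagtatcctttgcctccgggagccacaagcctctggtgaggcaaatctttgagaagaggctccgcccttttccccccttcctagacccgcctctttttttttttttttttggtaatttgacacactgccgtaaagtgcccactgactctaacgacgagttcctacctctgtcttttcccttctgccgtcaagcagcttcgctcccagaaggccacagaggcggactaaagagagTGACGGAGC
Psmd2: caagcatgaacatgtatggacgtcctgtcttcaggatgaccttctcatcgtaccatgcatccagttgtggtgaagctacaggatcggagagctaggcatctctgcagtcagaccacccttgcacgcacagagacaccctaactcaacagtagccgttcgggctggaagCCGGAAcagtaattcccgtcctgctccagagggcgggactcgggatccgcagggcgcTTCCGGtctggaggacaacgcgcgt
Psmc5: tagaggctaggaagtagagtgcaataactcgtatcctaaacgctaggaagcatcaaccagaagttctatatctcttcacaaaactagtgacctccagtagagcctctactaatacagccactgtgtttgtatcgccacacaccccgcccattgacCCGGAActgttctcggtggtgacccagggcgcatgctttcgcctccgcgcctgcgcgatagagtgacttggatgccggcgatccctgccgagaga
Psme2: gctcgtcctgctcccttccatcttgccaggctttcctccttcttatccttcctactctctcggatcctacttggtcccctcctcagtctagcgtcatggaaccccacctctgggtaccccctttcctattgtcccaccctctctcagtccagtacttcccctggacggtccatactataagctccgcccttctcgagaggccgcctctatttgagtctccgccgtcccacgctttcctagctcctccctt

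Of the 47 members, 39 matched a RefSeq promoter by symbol, and 7 motifs were searched on both strands, each from 250 bases before to 50 bases after a listed start. CCGGAA was in promoters of 21 of the 39 genes (53.8%), against 14.9% of all 32851 promoters and 31.6% of the 6091 matched genes at a mean of at least 10 CPM (the count relative to library size, TMM-normalised) in these hearts. The interferon-stimulated response element was in 5 of 39 (12.8%: Psmd4, Psmd9, Psmb3, Psmg4 and Psme1), against 3.44% of all promoters and 3.45% of the genes at that level. TGACNNNGC was in 6 of 39 (15.4%), against 12.4% of all promoters and 17.8% of the genes at a mean of at least 10 CPM. CCAAT was in 14 of 39 (35.9%), against 37.4% of all promoters and 41.9% of the genes at that level. TGACTCAGC (a form of TGACNNNGC), TGACGTCA (the cyclic AMP response element) and the heat shock element were each in 0 of 39. In all promoters their shares were 0.454%, 1.79% and 0.603%, and in the genes at that level 0.509%, 3.66% and 0.673%. Shares of all promoters count promoters, while the other shares count genes, by any of their promoters. These matches describe letters in a window and were not tested.

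Levels per length were compared first, as CPM per kb of exon. The 31 core and cap genes had means over the 6 libraries from 7.13 CPM per kb for Psmd14, the cap enzyme that removes ubiquitin chains, to 67.7 CPM per kb for Psmb2, a structural beta subunit. Median levels were 51.9 CPM per kb over the beta ring genes, 23.9 over the cap ATPases and 23.5 over the cap subunits without ATPase activity. The median was 13.3 CPM per kb over the alpha ring genes, Psma8 included, while Psmb11, without counts, was not among the beta ring genes. Exon lengths over all transcripts were 2.91 kb for Psma2 and 2.85 kb for Psma3. They were 1.15 to 1.24 kb for Psma1 and Psma4 to Psma7, so the ring medians depend on lengths and on the genes included. Among catalytic genes Psmb7 averaged 54.1 CPM per kb and Psmb6 51.9, with overlapping ranges over libraries (36.5 to 67.4 and 41.5 to 64.2). Psmb5 averaged 21.4 CPM per kb, with a range of 16.7 to 27.2 that overlapped neither. Psmb1, a structural beta subunit, averaged 12.0 CPM per kb over an exon length of 3.43 kb, against 0.766 to 1.18 kb for the other beta genes. Assembly chaperones had a median of 3.44 CPM per kb, from 1.92 (Psmg3) to 7.65 CPM per kb (Psmg2), which reached past Psmd14.

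**Figure D1:**
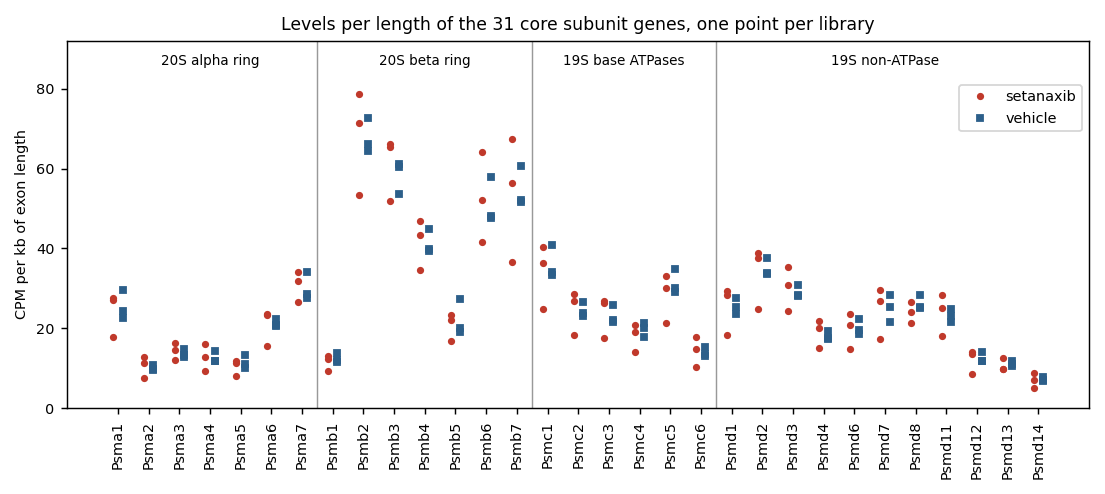
Levels in CPM per kb of exon length (vertical axis, from 0) for the 31 core and cap genes (horizontal axis, by role), with a point per library, setanaxib left and vehicle right of each gene. Psmb2 is highest at a mean of 67.7 and Psmd14 lowest at 7.13, and the points of the groups overlap for all 31 genes.

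No proteasome gene passed the test of setanaxib against vehicle. By edgeR's quasi-likelihood test with Benjamini-Hochberg adjustment over 20472 genes, 0 of 46 members were called, where 0.00488% of all genes were, and the lowest adjusted p was 0.676. DESeq2 and limma-voom also called 0 of 46. At an unadjusted p under 0.05 there were 0 of 46 members by each of these tools, where edgeR gave 8.46% of all genes (3.76% higher and 4.69% lower with setanaxib). The median log2 fold change was -0.03 over the 46 members and 0.01 over all genes tested, with 26 members below 0 and 20 above, where 48.4% of all genes were below 0. Between the groups 1 member (Psme2, lower with setanaxib) did not overlap, where 17.6% of all genes did not and 9.46% did not in that direction. A log2 fold change past 0.25 in size was seen in 2 members (Psme2b and Psmg4), where 43.4% of all genes had one. Of the 37 members at a mean of at least 10 CPM, 0 had a log2 fold change past 0.25 in size, where 23.8% of the 7792 genes at that level did. The standard errors of these 37 members were not small, with a median of 0.18 on the log2 scale against 0.13 over genes of that level. The 95% intervals of the 31 core and cap genes lay between -0.60 and 0.54, or 0.661-fold and 1.46-fold at their outermost. The half-width of the interval ran from 0.27 for Psmd8 to 0.54 for Psmb7 on the log2 scale, so the change that could have been told from 0 differed between genes.

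**Figure D2:**
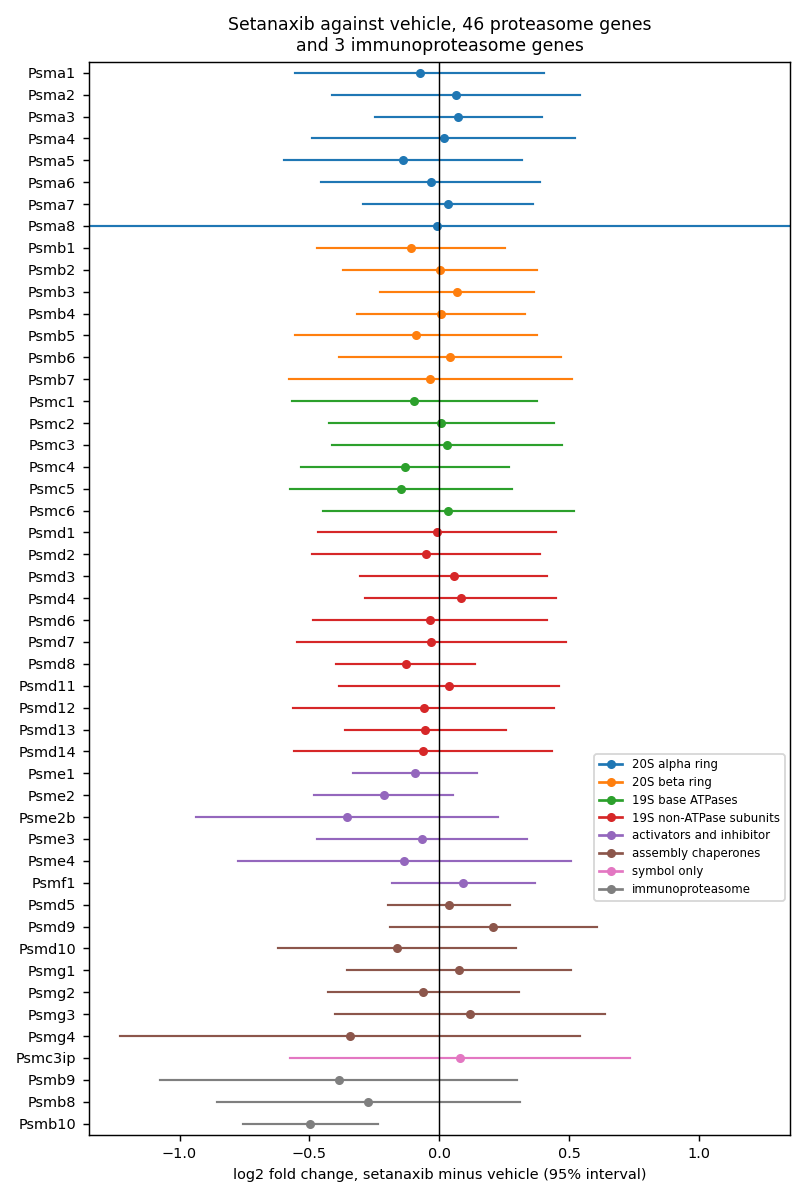
Log2 fold change of setanaxib minus vehicle (horizontal axis; points) with 95% intervals (bars) for the 46 tested members and the 3 immunoproteasome genes, coloured by role. The intervals of all 46 members include 0 and that of Psma8 runs past the axis, while the interval of Psmb10 lies from -0.76 to -0.24.

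The alpha ring, which gates the barrel, had a median log2 fold change of 0.00 over 8 tested genes, with 4 below 0 and 4 above. Its member of lowest p was Psma5, at 14.0, 14.7 and 10.1 CPM in setanaxib replicates 1 to 3 and 13.6, 16.7 and 12.3 CPM in vehicle replicates 1 to 3. The groups overlapped, and setanaxib replicate 3 was the lowest library (log2 fold change -0.14, SE 0.19, edgeR adjusted p = 0.899). Psma8, the testis form, was at 0.307, 0 and 0.440 CPM with setanaxib and at 0.305, 0.205 and 0.243 CPM with vehicle. At these few counts its 95% interval ran from -3.10 to 3.08. Psmb11, the thymus form, was at 0 counts in all 6 libraries.

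The catalytic beta genes stood at similar means in the groups. Psmb5 was at 21.0, 19.9 and 15.0 CPM in setanaxib replicates 1 to 3 and 18.0, 24.5 and 17.1 CPM in vehicle replicates 1 to 3 (mean 18.7 ± 3.20 CPM with setanaxib and 19.9 ± 4.02 CPM with vehicle, SD, n = 3 each; log2 fold change -0.09, 95% interval -0.56 to 0.37). Psmb6 was at 51.2, 41.6 and 33.2 CPM with setanaxib and 38.4, 46.1 and 38.0 CPM with vehicle (log2 fold change 0.04, 95% interval -0.39 to 0.47). Psmb7 was at 78.2, 65.4 and 42.3 CPM with setanaxib and 70.3, 60.4 and 59.8 CPM with vehicle (log2 fold change -0.03, 95% interval -0.58 to 0.51). For each of these genes setanaxib replicate 3 was the lowest of the 6 libraries, and vehicle libraries lay between setanaxib replicates 1 and 3 except vehicle replicate 2 for Psmb5. Psmb1, of lowest p in the ring, was at 44.4, 42.6 and 31.8 CPM with setanaxib and 41.1, 47.2 and 39.9 CPM with vehicle, and the groups overlapped (log2 fold change -0.11, SE 0.15). The ring's 7 tested genes had a median of 0.00.

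The ATPases of the cap, which thread the substrate into the barrel, had a median log2 fold change of -0.04 with 3 of 6 below 0. Psmc5 was at 43.7, 39.5 and 28.2 CPM with setanaxib and 39.7, 45.7 and 38.2 CPM with vehicle (log2 fold change -0.15, SE 0.18, edgeR adjusted p = 0.880). Psmc4 was at 30.2, 27.4 and 20.3 CPM with setanaxib and 25.8, 30.8 and 28.8 CPM with vehicle (log2 fold change -0.13, SE 0.16). In both genes setanaxib replicate 3 was lowest and vehicle replicate 2 highest. Psmc2, Psmc3 and Psmc6 were on the other side of 0, at 0.01, 0.03 and 0.03.

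The 11 cap subunits without ATPase activity had a median log2 fold change of -0.04, with 8 below 0 and 3 above. Psmd8, a lid subunit, was at 58.6, 52.8 and 47.1 CPM with setanaxib and 55.1, 62.5 and 55.8 CPM with vehicle (log2 fold change -0.13, SE 0.11, edgeR adjusted p = 0.815). Psmd2 and Psmd1, the large scaffolds of the base, had the most counts of the subunits. Psmd2 was at 111, 115 and 73.5 CPM with setanaxib and 99.7, 111 and 100.1 CPM with vehicle (log2 fold change -0.05, SE 0.18). Psmd1 was at 91.3, 88.5 and 57.4 CPM with setanaxib and 79.2, 86.1 and 73.5 CPM with vehicle (log2 fold change -0.01, SE 0.19). In both genes setanaxib replicate 3 was below every vehicle library, and setanaxib replicates 1 and 2 were at or above vehicle replicates 1 and 3. Psmd4, a ubiquitin receptor, had the highest value of this group, at a log2 fold change of 0.08 (SE 0.15).

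Among activators, which cap the barrel in place of the 19S particle, the interferon-inducible Psme1 and Psme2 differ from Psme3, their nuclear relative. Psme2 was at 12.9, 12.1 and 10.7 CPM in setanaxib replicates 1 to 3 and at 13.2, 14.3 and 13.9 CPM in vehicle replicates 1 to 3. It was lower in all 3 setanaxib libraries and had the lowest p of the members, yet did not pass (log2 fold change -0.21, SE 0.11, 95% interval -0.48 to 0.05, edgeR adjusted p = 0.676). Psme1 was at 44.3, 38.5 and 37.7 CPM with setanaxib and 41.6, 45.4 and 41.5 CPM with vehicle, with overlapping groups (log2 fold change -0.09, SE 0.10). Psme3 averaged 46.4 ± 10.1 CPM with setanaxib and 48.6 ± 3.81 CPM with vehicle (SD, n = 3 each; log2 fold change -0.07, SE 0.17). The ratio of Psme2 to Psme3 averaged 0.261 ± 0.0324 with setanaxib and 0.285 ± 0.0179 with vehicle and overlapped (exact two-sided permutation test, p = 0.5, adjusted p = 0.833 over 5 ratios, where 0.1 is the smallest p that 3 against 3 allow). Psme2b, a near copy of Psme2 that can share its reads and overlaps other genes, stood at 0.833, 1.13 and 0.933 CPM with setanaxib and 1.38, 1.05 and 1.26 CPM with vehicle (log2 fold change -0.36, SE 0.24).

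Psme4, which encodes the PA200 activator, had the most counts of any member. It was at 308, 345 and 167 CPM in setanaxib replicates 1 to 3 and 280, 322 and 298 CPM in vehicle replicates 1 to 3, so that setanaxib replicate 3 stood far below the other 5 libraries. The log2 fold change was -0.14 (SE 0.26, 95% interval -0.78 to 0.50, edgeR adjusted p = 0.934). Psmf1, which encodes the inhibitor PI31, had a different order of libraries. It was at 11.1, 13.2 and 13.2 CPM with setanaxib and 12.1, 11.5 and 11.6 CPM with vehicle, with setanaxib replicate 1 lowest (log2 fold change 0.09, SE 0.11).

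The assembly chaperones, which build the rings and the base and leave the finished particle, had a median log2 fold change of 0.04 over 7 genes, 3 below 0 and 4 above. Psmd9 had the highest value of all members and the lowest p of its group. It was at 11.8, 8.86 and 8.11 CPM with setanaxib and 8.55, 8.33 and 8.03 CPM with vehicle, where setanaxib replicate 1 alone stood apart (log2 fold change 0.21, SE 0.16, edgeR adjusted p = 0.802). Psmg4 was at 3.40, 2.59 and 1.43 CPM with setanaxib and 4.01, 3.09 and 2.32 CPM with vehicle (log2 fold change -0.34, SE 0.37). Psmd10, or gankyrin, was at 3.20, 3.67 and 4.12 CPM with setanaxib and 4.13, 4.80 and 3.40 CPM with vehicle (log2 fold change -0.16, SE 0.19). Psmd5 varied least, at 11.3 to 11.6 CPM with setanaxib and 10.5 to 11.6 CPM with vehicle. Psmc3ip was at 1.03, 1.27 and 1.41 CPM with setanaxib and 0.964, 1.04 and 1.51 CPM with vehicle (log2 fold change 0.08, SE 0.27). In the GENCODE M21 annotation, 21 of the 46 members overlap another gene by their whole spans, introns included. Among them are Psmd9, Psmb7, Psmc5, Psma5, Psmd1, Psme1 and Psme4. Shared exons were not examined, so their values may or may not hold reads of the other gene. The overlaps of Psmd9, Psma5, Psme1 and Psme4 are on the opposite strand, and no source used here states whether reads were counted by strand. That of Psmc5 is on the same strand, and Psmb7 and Psmd1 have both kinds. Where exons are shared, counting by strand would not separate reads of a same-strand overlap.

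Core and cap genes shared an order of the libraries that crossed the groups. In setanaxib replicate 3, 30 of the 31 core and cap genes were at their lowest of the 6 libraries, where 39.1% of all genes at a mean of at least 10 CPM were. The exception, Psmd13, was at 19.4 CPM in setanaxib replicate 2 and 19.5 CPM in setanaxib replicate 3. Over the 45 members with counts in every library, the SD of log2 CPM was larger with setanaxib than with vehicle for 39, where this held for 75.8% of 18530 genes. In setanaxib replicate 1, 19 of the 31 were at their highest, where 31.3% of genes at that level were, and vehicle replicate 2 held the highest value of 10 more. The median deviation from a gene's mean over the 6 libraries, in log2 CPM, was 0.22, 0.08 and -0.41 in setanaxib replicates 1 to 3 and -0.04, 0.16 and -0.06 in vehicle replicates 1 to 3. Over all genes at a mean of at least 10 CPM the same medians were 0.05, 0.02 and -0.07 with setanaxib and 0.00, 0.05 and -0.01 with vehicle. No test was made of this pattern, which was noticed in these values.

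The deviations from a gene's own mean depended on the scaling. The TMM factors, which divide the levels, were 0.892, 0.961 and 1.19 in setanaxib replicates 1 to 3 and 1.003, 0.949 and 1.03 in vehicle replicates 1 to 3, lowest in setanaxib replicate 1 and highest in setanaxib replicate 3. With total counts in place of TMM, an alternative chosen after seeing the data, setanaxib replicate 3 was lowest for 21 of the 31 core and cap genes, where 12.0% of all genes at a mean of at least 10 CPM were lowest there. Setanaxib replicate 1 was then highest for 9 of the 31 and vehicle replicate 2 for 12. The median deviation of the 31 was then 0.05, 0.03 and -0.16 in setanaxib replicates 1 to 3 and -0.03, 0.08 and -0.02 in vehicle replicates 1 to 3. Over all genes at that level it was -0.12, -0.04 and 0.18 with setanaxib and 0.00, -0.03 and 0.03 with vehicle. In setanaxib replicate 3 the median of the core and cap genes was thus below that of the other genes. A change of scaling shifts every gene of a library alike. The distance between these medians is therefore the same under both scalings, and total counts are no separate check of it. Between the groups Psme2 did not overlap with total counts either, nor did Psmb1 and Psmc5 (lower with setanaxib) and Psma3 (higher), where 7.89% of all genes did not overlap lower and 6.75% higher.

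**Figure D3:**
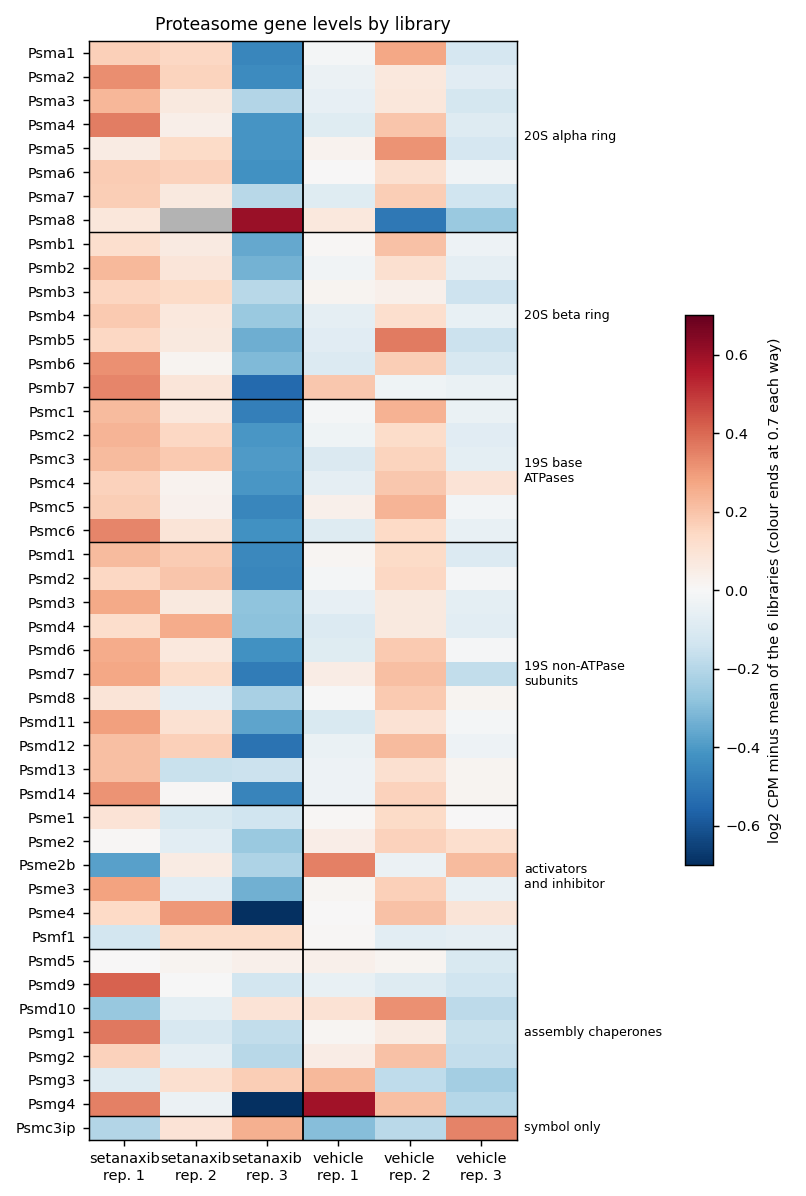
Log2 CPM (TMM scale) minus the gene's mean over the 6 libraries, as colour that ends at 0.7 each way. Rows are the 46 tested members by role, with setanaxib libraries left and vehicle libraries right. Grey marks the zero of Psma8, whose mean leaves that library out. The column of setanaxib replicate 3 is blue for the 31 core and cap genes (with total counts in place of TMM it is lowest for 21), while Psma8, Psmf1, Psmd5, Psmd10, Psmg3 and Psmc3ip are above their means there.

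The assembly chaperones and the inhibitor did not share the pattern fully. Over all 46 members setanaxib replicate 3 was lowest for 37, and the 9 others were Psma8, Psmd13, Psme2b, Psmf1, Psmd5, Psmd9, Psmd10, Psmg3 and Psmc3ip. Many related genes outside the symbol rule were also lowest there. Of 15 tested genes of other subunits and bound factors, such as the ubiquitin receptor Adrm1 and the deubiquitinase Usp14, 13 were lowest in setanaxib replicate 3, with a median deviation of -0.31. Of the 9 genes of the COP9 signalosome, a complex related in build to the cap's lid, 7 were lowest there, with a median deviation of -0.29. With total counts these were 6 of 15 and 5 of 9, with median deviations of -0.06 and -0.04. Of all genes at a mean of at least 10 CPM, 12.0% were then lowest there, with a median deviation of 0.18.

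**Figure D4:**
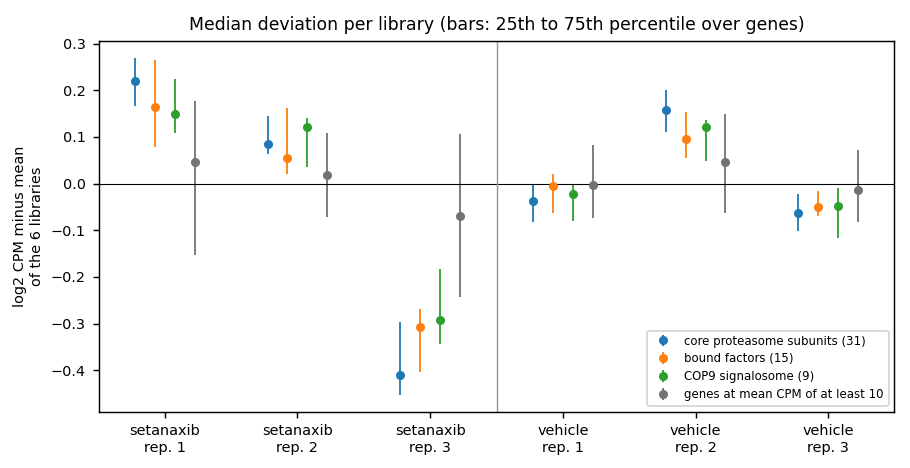
Median deviation in log2 CPM (TMM scale) from the mean of the 6 libraries (vertical axis; points, with bars from the 25th to the 75th percentile over genes) by library, setanaxib left and vehicle right, for core and cap genes, bound factors, COP9 signalosome and all genes at a mean of at least 10 CPM. The core and cap genes lie at 0.22 in setanaxib replicate 1 and -0.41 in setanaxib replicate 3, against -0.06 to 0.16 in vehicle libraries. With total counts these are 0.05 and -0.16, against -0.03 to 0.08. All genes at a mean of at least 10 CPM are then at -0.12 in setanaxib replicate 1 and 0.18 in setanaxib replicate 3.

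Several measures of whole libraries were also at their lowest or highest in setanaxib replicate 3. Sums over the 47 members repeat the pattern itself, as they hold the core and cap genes. They were 1972, 1871 and 1297 CPM in setanaxib replicates 1 to 3. With vehicle they were 1700 (replicate 1), 1908 (replicate 2) and 1681 CPM (replicate 3). As a share of total counts the same sums were 0.176%, 0.180% and 0.154% with setanaxib and 0.170%, 0.181% and 0.173% with vehicle, lowest in setanaxib replicate 3 and highest in vehicle replicate 2. The share of counts from the mitochondrial genome was 30.0%, 25.5% and 20.5% with setanaxib and 26.0%, 26.8% and 23.5% with vehicle, highest in setanaxib replicate 1 and lowest in setanaxib replicate 3. Total counts were 110803307 in setanaxib replicate 3, the lowest, and 121014814 to 154003318 in the others. Summed heart muscle markers (6 of 6 detected) were at 28696 to 39749 CPM with setanaxib, lowest in replicate 3 and highest in replicate 2. With vehicle they were at 35318 to 38206 CPM, highest in replicate 3. The order of this sum differed from that of the core and cap genes, but Myh6 was its largest part (16260 to 20761 CPM). Actc1 was at 3860 CPM in setanaxib replicate 3 and 7882 to 9457 CPM in the others. Tnnt2, Tnni3 and Mybpc3 were also lowest there. Myh6 (16357 CPM, against 16260 in vehicle replicate 2) and Ryr2 (3452 CPM, against 3009 in vehicle replicate 2) were not. Tnni3 and Ryr2 were highest in setanaxib replicate 1, as 19 of the 31 core and cap genes were. Actc1 and Mybpc3 were highest in vehicle replicate 2, and Tnnt2 and Myh6 in setanaxib replicate 2. Setanaxib replicate 3 also held 605.6 CPM of lung epithelial markers (597.8 of them Scgb1a1, of airway cells), 292.7 CPM of adipocyte markers and 2914 CPM of atrial markers. The other 5 libraries held at most 19.6, 9.62 and 568 CPM of these, and Sftpc, of lung alveoli, was at 1.34 CPM in setanaxib replicate 3 and 0 in the other libraries. The part of these measures in the proteasome values was not tested.

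The direction of the members' median turned without setanaxib replicate 3 and without vehicle replicate 2 (0.04). Without setanaxib replicate 3 the median log2 fold change of the 46 members was 0.13, with 8 below 0, and 10 members did not overlap between the groups in the direction of higher with setanaxib (Psma2, Psma6, Psmb3, Psmc2, Psmc3, Psmd1, Psmd3, Psmd4, Psmd9 and Psmd11). With 2 libraries against 3, 15.7% of all genes did not overlap in that direction. Psme2 did not overlap in the other. Psma2 and Psmd4 then had an unadjusted p under 0.05 (log2 fold change 0.26, SE 0.09, and 0.23, SE 0.09), with edgeR adjusted p of 0.344 and 0.367, each the lowest of 12 alternatives that reached 0.9997. Without setanaxib replicate 1 the median was -0.16, with 39 of 46 below 0, and Psme2 alone had an unadjusted p under 0.05 (log2 fold change -0.28, SE 0.11, edgeR adjusted p = 0.484, against 0.484 to 0.9997 over the alternatives). The groups then did not overlap for 5 members lower with setanaxib (Psmd8, Psmd13, Psme1, Psme2 and Psme3) and 1 higher (Psmf1), where 14.3% of all genes did not overlap lower and 15.2% higher. The median of all genes tested stayed between 0.00 and 0.02 in the 6 fits without a library, and no member was called in any of them.

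Psmb8, Psmb9 and Psmb10 encode the immunoproteasome subunits that take the places of Psmb5, Psmb6 and Psmb7 in immune cells and under interferon. Psmb10 was at 13.8, 16.2 and 14.3 CPM in setanaxib replicates 1 to 3 and at 20.5, 22.4 and 19.4 CPM in vehicle replicates 1 to 3, lower in all 3 setanaxib libraries. DESeq2 called it (adjusted p = 0.00401), where it called 2.41% of genes, and edgeR did not (log2 fold change -0.50, SE 0.11, adjusted p = 0.356). Over the 12 alternatives its adjusted p ran from 0.00401 to 0.863, highest without vehicle replicate 2. Psmb8 was at 2.70, 2.43 and 4.26 CPM with setanaxib and 3.86, 3.89 and 3.61 CPM with vehicle. Psmb9 was at 2.45, 2.75 and 4.86 CPM with setanaxib and 4.67, 4.51 and 3.999 CPM with vehicle. In both, setanaxib replicates 1 and 2 were below every vehicle library and setanaxib replicate 3 was above. Without that library the log2 fold changes moved to -0.55 (SE 0.15) for Psmb8, against -0.27 with all libraries, and to -0.75 (SE 0.15) for Psmb9, against -0.39, with edgeR adjusted p of 0.252 and 0.185, the lowest over their alternatives. Each of these 3 genes overlaps the span of another gene on the opposite strand (Psmb9 overlaps Tap1). Shared exons were not examined here either, so their values may carry the same uncertainty over strand.

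The ratio of each exchanged pair was read per library. Psmb10 to Psmb7 stood at 0.177, 0.247 and 0.337 with setanaxib and 0.292, 0.371 and 0.325 with vehicle. Psmb9 to Psmb6 averaged 0.0869 ± 0.0526 with setanaxib and 0.108 ± 0.0123 with vehicle, while Psmb8 to Psmb5 averaged 0.178 ± 0.0912 with setanaxib and 0.195 ± 0.0311 with vehicle (SD, n = 3 each). All overlapped, with exact two-sided permutation p of 0.3, 0.4 and 0.8 and adjusted p of 0.833, 0.833 and 0.9 over the 5 ratios tried, of which those of Psme1 and Psme2 to Psme3 were the others. Macrophage markers, a cell type rich in immunoproteasome, summed to 207 to 258 CPM with setanaxib and 327 to 418 CPM with vehicle. All 8 of 8 were lower and not overlapping, where 9.46% of all genes were. Markers of other cell types also leaned lower. Log2 fold changes were below 0 for 5 of 5 fibroblast markers (3 not overlapping) and 4 of 5 endothelial markers (1 not overlapping). The same held for 5 of 5 smooth muscle and pericyte markers (1 not overlapping). Endothelial sums were 497 to 625 CPM with setanaxib and 631 to 712 CPM with vehicle. Fibroblast sums overlapped, at 499 to 836 CPM with setanaxib and 755 to 1013 CPM with vehicle. So did smooth muscle and pericyte sums, at 443 to 711 CPM with setanaxib and 624 to 773 CPM with vehicle. Of heart muscle markers 3 of 6 were below 0, and of erythroid markers 0 of 4. Of 5 lymphocyte markers 4 (Cd3e, Cd3g, Ms4a1 and Nkg7) were at 0 in all libraries, and Cd79a, of B cells, was at 0, 0.342 and 1.55 CPM in setanaxib replicates 1 to 3 and 0.387, 0.760 and 0.544 CPM in vehicle replicates 1 to 3. With 481 counts in total Cd79a was near the floor, so its order of libraries was not read further. Ms4a1, also of B cells, was at 0 in setanaxib replicate 3 as well. The part of these cells in the values of Psme2, Psmb8, Psmb9 and Psmb10 was not tested.

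**Figure D5:**
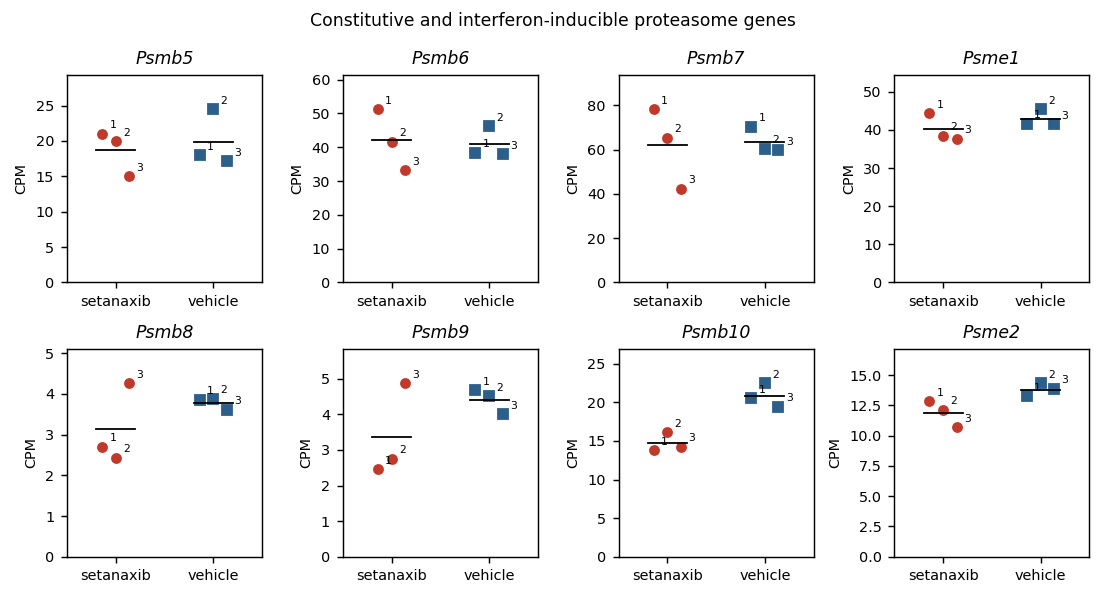
CPM (vertical axes, from 0) of the constitutive catalytic genes and Psme1 (top) and of the immunoproteasome genes and Psme2 (bottom) with setanaxib (left in each panel) and vehicle (right); points are libraries with their replicate number, lines are means. Groups are apart for Psmb10 (13.8 to 16.2 against 19.4 to 22.4 CPM) and Psme2 (10.7 to 12.9 against 13.2 to 14.3 CPM) and overlap elsewhere.

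Genes that supply and control the proteasome passed no test either. Nfe2l1 encodes the factor that raises proteasome gene transcription when proteasome activity is short. It was at 399, 479 and 320 CPM with setanaxib and 430, 476 and 458 CPM with vehicle (log2 fold change -0.19, SE 0.16, edgeR adjusted p = 0.815). For its relative Nfe2l2 the log2 fold change was -0.10 (SE 0.12). For Nfe2l3 it was 0.70 (SE 0.30, edgeR adjusted p = 0.611), and the groups did not overlap, at 2.46 to 4.64 CPM with setanaxib and 1.57 to 2.40 CPM with vehicle. Ddi2, Ngly1 and Vcp, which process the Nfe2l1 protein, were at 0.10, 0.09 and -0.04. Of the 6 genes of this list, 0 had an unadjusted p under 0.05.

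Of 16 listed other subunits and bound factors 15 were tested and 0 had an unadjusted p under 0.05 (median log2 fold change -0.01). The lowest p were those of the shuttle factors Ubqln2, at 0.17 (SE 0.09) and higher in all 3 setanaxib libraries, and Ubqln4, at -0.19 (SE 0.14). Of 6 ubiquitin genes and ubiquitin-activating enzymes 0 passed at that level (median -0.03), with Rps27a at -0.17 (SE 0.13) and Ubb, a polyubiquitin gene, at 0.14 (SE 0.12). Of the 9 genes of the COP9 signalosome 0 did (median 0.01), led by Cops7b at -0.07 (SE 0.13) and Cops5 at 0.08 (SE 0.18).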

How the data were processed

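Total heart RNA (1 µg per library) was sequenced as paired ends of 150 bases, per the labels' protocols. What the authors deposited are whole-number estimated counts, which sum to different totals per library, so no rounding was applied and the tests planned for raw counts were kept. The submitters' processing notes name FastQC 0.11.9, STAR 2.5.4b, featureCounts 2.0.1, DESeq2 1.42.0 and GRCm39, with no roles. Row and column names, per the file headers, have the form written by StringTie's count script.

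Libraries held 110803307 to 154003318 counts, so precision is set by the variation between libraries more than by depth. In R 4.3.3, genes kept by edgeR's filterByExpr (minimum 10 counts; 20472 genes) were scaled by TMM and tested, setanaxib minus vehicle, with edgeR 4.0.16's quasi-likelihood test, two-sided, threshold 0.05. Standard errors and 95% intervals derive from its F statistic. The test was checked on simulated data. Alternatives were DESeq2 1.42.0, limma 3.58.1 (voom), other scalings and filters (total counts without TMM added after seeing the data), and leaving out each library. Exon lengths and overlaps came from GENCODE M21 (GRCm38, protein-coding transcripts of the basic set for lengths, whole gene spans for overlaps).

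Members and lists were chosen with earlier results of these data known. Values per library are given for Psmb5 to Psmb7, the member of lowest p in each role group, the 12 members of lowest p, the 3 with most counts and Psmb8 to Psmb10. From each pathway list the 2 genes of lowest p were named. All genes of the transcription control list were named. Psmd4, Psmd5, Psmd13, Psme3, Psma2, Psma8, Psmd14, Psmb2 and genes named for their place among libraries were chosen after their values were seen.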

Additional observations from a re-analysis of the deposited data

How the results depend on the processing

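The count of called members was 0 under DESeq2, limma-voom, other size factors (RLE), removal of mitochondrial genome genes, no filter on low counts, total counts in place of TMM (chosen after seeing the data) and each left-out library. Over all genes the count of 1 became 494 with DESeq2 and 0 with limma-voom, and lay between 0 and 1 without single libraries (0 without vehicle replicate 1, 2 or 3). The members' median log2 fold change lay between -0.16 and 0.13 without single libraries and turned positive without setanaxib replicate 3 (0.13) or vehicle replicate 2 (0.04). Without setanaxib replicate 3, 10 of the 19 named members turned in sign, and with the 6 other tools, scalings or filters 0 did; the cause was not tested. No paired analysis was possible because the labels give the groups no shared replicate numbers.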
